A study of Mus musculus with 6 samples.

Results

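Wnt ligands, their receptors and their secreted antagonists were followed in senescent and non-senescent mouse skin fibroblasts (MSFs). The genes were chosen by symbol. They are all Wnt, Frizzled (Fzd), secreted Frizzled-related protein (Sfrp) and Dickkopf (Dkk) genes of the deposited table, together with Wif1, Axin2, Lef1, Lrp5, Lrp6, Ror1 and Ror2. This gave 44 of the 22162 genes in the table: 19 ligands, 10 Frizzled receptors, 4 co-receptors or other receptors, 9 secreted antagonists and 2 feedback genes. The family was selected because Wnt4 was higher in senescent MSFs, so Wnt4 is described here with no test and is left out of the counts of called genes.

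The MSFs came from the dorsal skin of 1 female FASST mouse on the FVB/N strain and were grown at 3% oxygen. FASST mice carry Cre-ERT2, a tamoxifen (TAM)-inducible Cre recombinase driven by pro-alpha 2(I) collagen sequences, and a lox-stop-lox p27Kip1 allele with IRES-GFP at the ROSA26 locus. Both groups carry both alleles, and the age of the mouse was not given in the sources used here. The 3 samples labelled senescent had received 10 µM TAM over 48 h and the 3 labelled non-senescent only the ethanol vehicle, and poly(A) RNA of all 6 was sequenced. Nothing in the sources says that the 3 samples of a group were separate cultures, so p-values measure only the spread between these samples, which may be technical. MSFs without the alleles that received TAM were not analysed here, so TAM itself and activation of p27Kip1 cannot be told apart.

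Wnt proteins are secreted, lipid-modified ligands that bind Frizzled receptors. With the co-receptors Lrp5 or Lrp6 they stabilise beta-catenin, which enters the nucleus and acts with TCF/LEF factors on target genes, among them Axin2 and Lef1. Through Ror2 and related receptors they also act on cell polarity and movement without beta-catenin. Sfrp proteins and Wif1 bind Wnt proteins outside the cell, whereas Dkk1, Dkk2 and Dkk4 bind Lrp5 and Lrp6. In skin, dermal fibroblasts both make and receive Wnt signals, for example during hair follicle formation and wound repair.

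The table holds normalized counts, whose sums per library were between 14952367 and 17314953. Cdkn1b, the mouse gene for p27Kip1, had 1427, 3074 and 1853 normalized counts in non-senescent replicates 1, 2 and 3 and 1699, 1520 and 1630 in senescent replicates 1, 2 and 3. Whether transgene reads were counted on Cdkn1b is not given in the sources used here, so directions are stated for the libraries as labelled. All 9 fibroblast markers were present, with summed normalized counts of 1.95e+06 to 2.08e+06 in non-senescent and 1.27e+06 to 1.59e+06 in senescent MSFs. The leukocyte markers summed to 176 to 461 and 269.6 to 466, the endothelial markers to 85.9 to 241 and 15.7 to 34.3, and the pericyte or smooth muscle markers to 524 to 816 and 748 to 2694. The sum of 2694 was senescent replicate 2, and the other senescent sums, 748 and 802, lay within the non-senescent range. Among these markers, Myh11 was at 94.4 to 227 in non-senescent and 479 to 1568 in senescent MSFs, and Mcam at 25.7 to 48.4 and 71.6 to 268. Cspg4, at 233 to 680 and 102 to 787, overlapped between the groups, as did Rgs5 and Des. Of the 5 endothelial markers, Kdr was at 68.7 to 205 in non-senescent and 4.84 to 14 in senescent MSFs. The others stayed at or below 31.3 in every library. Keratinocyte, melanocyte, Schwann cell and adipocyte markers summed to at most 255 in every library. Of the 7 leukocyte markers, 4 stayed below 16.2 normalized counts in every library, with Emr1 listed at 0 in all 6. Lyz2 was at 35.3 to 62.9 in non-senescent and 103 to 159 in senescent MSFs, and Csf1r at 73.4 to 75.7 and 90.6 to 226. Cd68 was at 52.1 to 352 and 49.6 to 116, with overlapping groups. The libraries numbered 2 stood apart from the others. A list of 12 proliferation genes summed to 4456 and 4635 in them and to 1397 to 2470 in the other 4. The 4 skeletal muscle markers summed to 1405 in senescent replicate 2 against 21.1 to 56.3 elsewhere, almost all of it from Acta1 (1404 in that library). Myod1, Myog and Ckm were at or below 0.82 in every library. In bulk RNA, fewer cells of a type and less RNA per cell cannot be told apart.

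Promoter sequences are shown for Wnt4, which chose the family, and for Wnt11, Sfrp1 and Dkk3, the 3 other members that passed the test without or with the replicate number as a block. Each is the 250 bases before the gene's first base, 5′ to 3′ on the gene's own strand, from the mm9 genome at the starts given in the deposited table. Capitals mark a TCF/LEF core (CTTTGAT or its reverse complement) or a TATA box (TATAAA), and an AP-1 motif (TGANTCA) was also searched. All motifs were searched on both strands.
Wnt4, chr4:136833154-136833403, plus strand: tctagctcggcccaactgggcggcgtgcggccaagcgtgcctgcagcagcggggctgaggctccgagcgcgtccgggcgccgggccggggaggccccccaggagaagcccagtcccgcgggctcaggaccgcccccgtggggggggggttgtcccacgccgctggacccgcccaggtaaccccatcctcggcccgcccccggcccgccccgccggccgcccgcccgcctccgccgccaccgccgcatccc
Wnt11, chr7:105983372-105983621, plus strand: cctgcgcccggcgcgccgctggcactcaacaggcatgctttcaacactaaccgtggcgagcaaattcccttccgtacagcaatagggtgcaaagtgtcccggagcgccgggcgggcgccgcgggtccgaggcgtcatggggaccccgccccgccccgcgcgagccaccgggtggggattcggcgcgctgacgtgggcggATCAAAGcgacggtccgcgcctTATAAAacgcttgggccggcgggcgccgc
Sfrp1, chr8:24521724-24521973, plus strand: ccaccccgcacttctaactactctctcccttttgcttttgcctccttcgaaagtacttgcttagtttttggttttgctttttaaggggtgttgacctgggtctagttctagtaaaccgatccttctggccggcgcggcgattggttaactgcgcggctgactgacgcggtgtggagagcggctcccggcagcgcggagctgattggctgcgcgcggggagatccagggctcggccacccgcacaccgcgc
Dkk3, chr7:119302572-119302821, minus strand: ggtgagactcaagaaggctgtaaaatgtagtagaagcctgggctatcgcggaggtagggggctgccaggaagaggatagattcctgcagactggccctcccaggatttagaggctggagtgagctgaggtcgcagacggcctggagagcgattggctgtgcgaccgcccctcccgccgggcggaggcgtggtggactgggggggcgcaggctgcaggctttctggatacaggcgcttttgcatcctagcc

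The Wnt11 sequence holds a TCF/LEF core that starts 51 bases before the first base of the gene and a TATA box that starts 29 bases before it. None of the 3 motifs is present in these letters for Wnt4, Sfrp1 or Dkk3. Among 22148 promoters of the same length, 2.95% hold the TCF/LEF core, 6.09% the AP-1 motif and 12.5% the TATA box. Besides Wnt11, the members with a TCF/LEF core were Wnt5b, Wnt8a and Dkk4. The Wnt4 and Wnt11 sequences hold 33 and 37 CG pairs, the Sfrp1 sequence 22 and the Dkk3 sequence 13, against a median of 8 over all promoters.

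Expression was compared for the genes with at least 1 c.p.m., taken as 16.2 normalized counts, in at least 3 of the 6 libraries. These were 11877 genes, 25 of them members. A log2 fold change here is the difference of mean log2(normalized counts + 1), senescent minus non-senescent, which makes changes of low genes smaller. Fold changes were tested with limma, with Benjamini-Hochberg adjustment of the p-values over all genes tested. Of the 24 members tested besides Wnt4, 1 was higher (Dkk3) and 0 were lower in senescent MSFs at an adjusted p under 0.05, where 0.168% of all genes tested were higher and 0.0758% lower. The unadjusted p was under 0.05 for 9 higher and 2 lower members, where the shares of all genes were 6.66% and 6.70%. All 3 senescent values lay above all 3 non-senescent values for 9 members and below them for 2, against 9.19% and 11.4% of all genes. The replicate block gave 3 higher members (Dkk3, Wnt11 and Sfrp1) and 0 lower ones, where 1.00% of all genes were higher and 0.615% lower. The median log2 fold change of the 24 was 0.36, and that of all genes tested was −0.03. Of the 25 members, 7 (Wnt4, Wnt11, Fzd3, Sfrp1, Sfrp2, Lef1 and Axin2) reached the minimum in fewer than 3 non-senescent libraries and so passed with the help of the senescent ones, and 2 (Wnt16 and Axin2) reached it in fewer than 3 senescent libraries. The counts and the median are therefore a description of the members that passed.

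**Figure D1:**
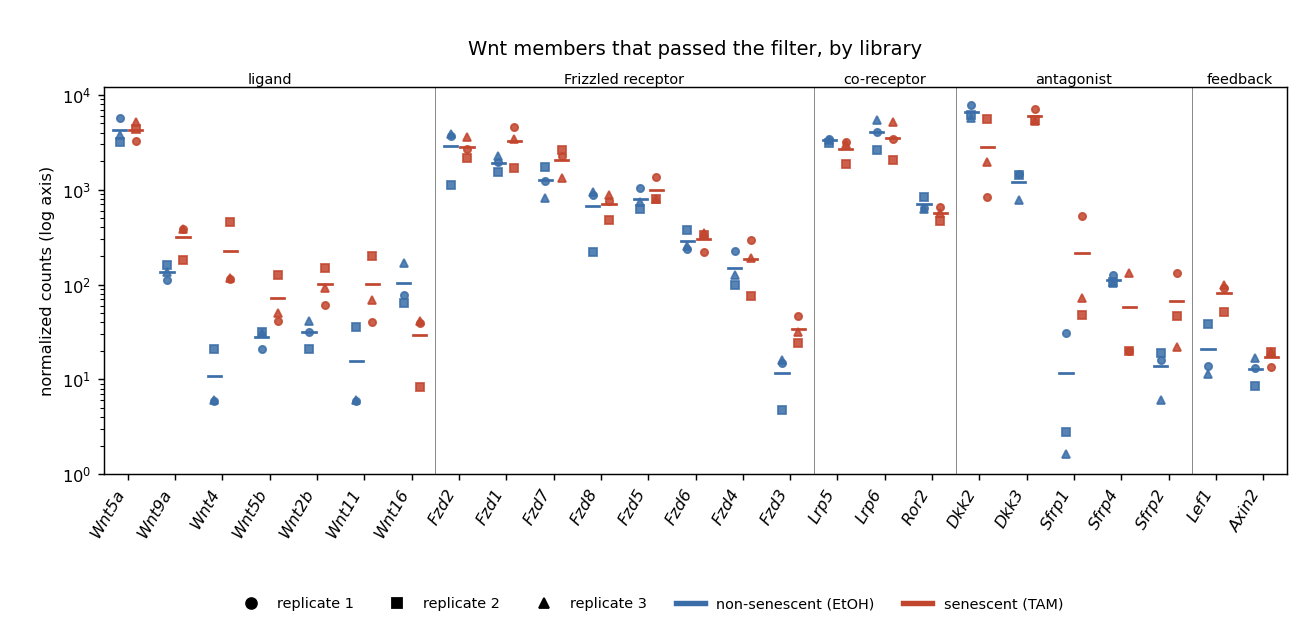
Normalized counts (log axis) of the 25 members that passed the filter, by role and by library. Points are single libraries, shaped by replicate number, and bars are group means of 3. Dkk3 stands between 771 and 1462 in non-senescent (blue) and between 5341 and 7103 in senescent (red) libraries, while Wnt5a overlaps between the groups.

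Wnt5a, a ligand known mainly for signalling without beta-catenin, was the most abundant ligand of these fibroblasts. It had 5660, 3178 and 3803 normalized counts in non-senescent replicates 1, 2 and 3 and 3277, 4337 and 5190.4 in senescent replicates 1, 2 and 3. The groups overlapped fully, with a log2 fold change of 0.04 (standard error 0.28, adjusted p = 0.973, n = 3 per group), and its sign turned without non-senescent replicate 2 (−0.15), non-senescent replicate 3 (−0.02) or senescent replicate 3 (−0.12). Per kb of exon, which allows genes to be compared, Wnt5a made up 80.7% to 91.3% of the summed level of all 19 ligands in non-senescent MSFs and 62.0% to 74.9% in senescent MSFs. Its own level per kb was 539 and 546 on average, so the smaller share went with higher levels of other ligands. A non-coding gene on the opposite strand, Gm2670, covers 4.58% of the exon bases of Wnt5a, and the strand setting of the counting was not given in the sources used here.

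Wnt4, a ligand needed for kidney tubules and the female reproductive tract, lies on chromosome 4 of mm9 from 136833404 to 136855641 on the plus strand. It had 5.94, 20.9 and 6.04 normalized counts in non-senescent MSFs and 114, 452 and 117 in senescent MSFs, in the order of replicates 1 to 3. The lowest senescent value was above the highest non-senescent value, and both libraries numbered 2 had the highest value of their group. The means were 11.0 ± 8.62 and 227 ± 194 (SD, n = 3), and the log2 fold change was 4.16, by which Wnt4 was chosen. Between libraries of the same number the log2 difference was 4.05, 4.37 and 4.06, and without 1 library at a time the log2 fold change ranged from 3.51 to 4.71. Wnt4 went from 0.179% to 0.991% of the ligand level per kb in non-senescent MSFs to 3.14% to 12.0% in senescent MSFs. Of the 44 members, Wnt4 alone had a stretch of its transcript (9.68%) that matched transcripts of other genes, 32 in number, over 100 bases or more with an identity of at least 95%. Reads from that stretch could have been split between genes.

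Wnt11, a ligand of cell movement in early development and of kidney branching, had 5.95, 35.3 and 6.04 normalized counts in non-senescent and 40.3, 198 and 68.3 in senescent MSFs. The groups did not overlap, but non-senescent replicate 2 was close to senescent replicate 1. Its log2 fold change of 2.77 had a standard error of 0.83 and an adjusted p of 0.240, and it ranged from 2.14 (without senescent replicate 2) to 3.57 (without non-senescent replicate 2) with 1 library left out. With the replicate block the standard error was 0.35 and the adjusted p 0.0384, and same-numbered libraries differed by 2.57, 2.45 and 3.30 on the log2 scale. As with Wnt4, the libraries numbered 2 had the highest value of each group, and the part of what sets these libraries apart was not tested. A pseudogene on the opposite strand, Gm8398, covers 10% of the exon bases of Wnt11.

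For the 3 ligands Wnt9a, Wnt2b and Wnt5b, all senescent values lay above all non-senescent values, but none passed the adjusted threshold. Wnt9a, a ligand of joint formation, was the ligand of second highest mean level per kb. It had 112, 160.2 and 136 normalized counts in non-senescent and 383, 182 and 389 in senescent MSFs, a log2 fold change of 1.15 (standard error 0.34, adjusted p = 0.234). The gap came from senescent replicates 1 and 3, and without both libraries numbered 2 the log2 fold change was 1.63 (adjusted p = 0.0585). Wnt2b had 31.8, 20.9 and 41.5 normalized counts against 60.3, 149 and 91.0, a log2 fold change of 1.60 (standard error 0.43, adjusted p = 0.205). Here senescent replicate 2 was the highest, and the log2 fold change was 1.01 without both libraries numbered 2. For Wnt5b, a close relative of Wnt5a, the values were 20.9, 31.5 and 30.9 against 41.6, 126 and 49.7, with a log2 fold change of 1.20 (standard error 0.48, adjusted p = 0.344) that was 0.82 without both libraries numbered 2.

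Wnt16, a ligand with a role in cortical bone, was the only ligand tested with a negative log2 fold change. It had 78.3, 63.9 and 168 normalized counts in non-senescent and 39.2, 8.36 and 41.5 in senescent MSFs. All senescent values were below all non-senescent values, with a log2 fold change of −1.92 (standard error 0.67, adjusted p = 0.290). Without senescent replicate 2, the lowest library, it was −1.21 (adjusted p = 0.348).

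The other 12 ligands did not pass the filter. Wnt2 had 4.50, 6.65 and 0.77 normalized counts in non-senescent and 10.4, 48.6 and 5.55 in senescent MSFs, so 1 library, senescent replicate 2, stood far above the rest. Wnt10b, a ligand that acts through beta-catenin, had 0, 1.89 and 0.81 against 2.12, 20.9 and 6.76, with senescent replicate 2 again the highest. Wnt10a and Wnt6 were listed at 0 in all non-senescent libraries and at 0.67 to 3.25 and 0.63 to 1.48 in the senescent ones. These values are near the smallest non-zero values of the libraries, 0.36 to 0.89 normalized counts, so they rest on 1 or a few reads. Wnt7b was at 0 to 5.30 with overlapping groups, and Wnt3a was listed at 0 in all 6 libraries. The remaining 6 ligands, Wnt1, Wnt3, Wnt7a, Wnt8a, Wnt8b and Wnt9b, stayed at or below 1.94 in every library.

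**Figure D2:**
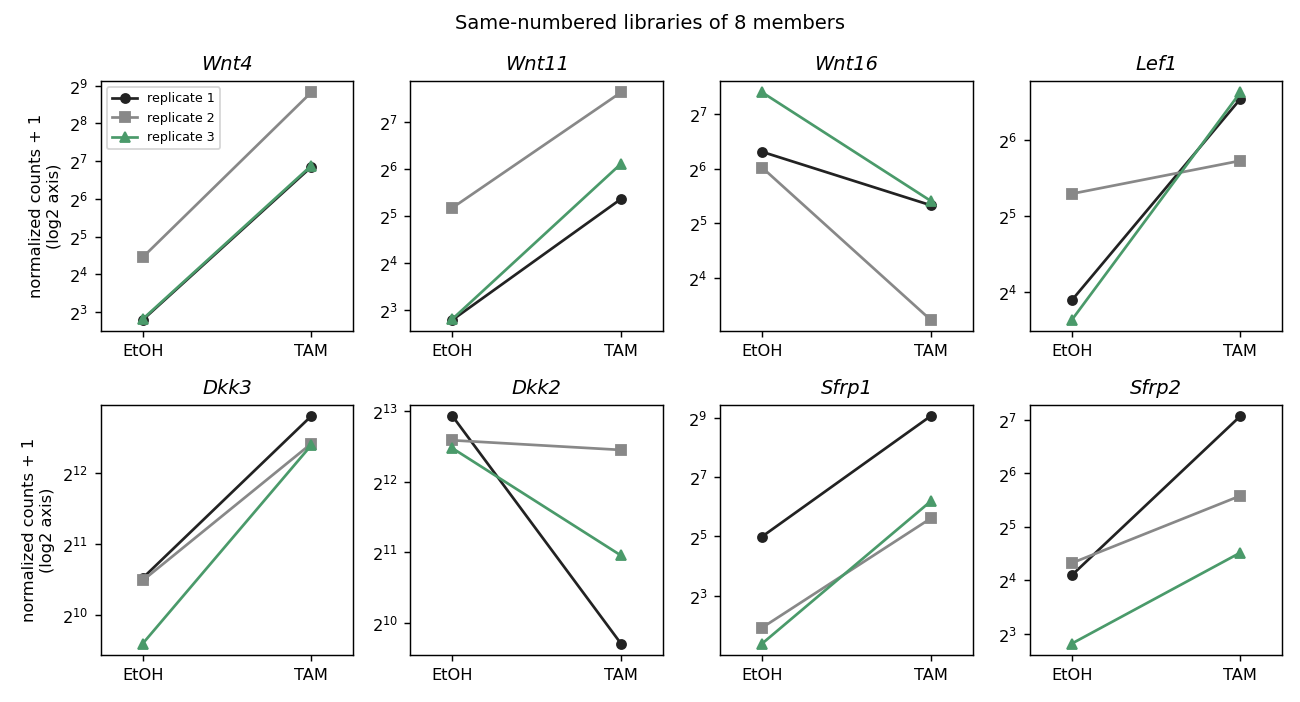
Normalized counts + 1 (log2 axes, which differ between panels) of 8 members in non-senescent (EtOH) and senescent (TAM) libraries, with lines joining libraries of the same replicate number. The lines of Wnt4, Wnt11 and Sfrp1 start at different levels and run nearly parallel, whereas the lines of Dkk2 diverge from −0.14 in replicate 2 to −3.23 in replicate 1.

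The Frizzled receptors bind Wnt proteins at the cell surface, and 8 of the 10 were tested. All 8 had a positive log2 fold change, from 0.05 (Fzd6) to 1.56 (Fzd3), and none passed the adjusted threshold without or with the replicate block. The 8 signs were the same under both other scalings, but Fzd2 turned negative with library weights (−0.04), and leaving out 1 library left 5 to 7 of those tested positive. Fzd2, the Frizzled with the highest mean level per kb, had 3663, 1112 and 3889.9 normalized counts in non-senescent and 2709, 2158 and 3625 in senescent MSFs. Non-senescent replicate 2 was the lowest of the 6 libraries, and the log2 fold change of 0.14 (standard error 0.49, adjusted p = 0.934) became −0.45 without it. Fzd1 had 1961, 1521 and 2276 against 4584, 1714 and 3437, a log2 fold change of 0.66 (standard error 0.37, adjusted p = 0.495), and senescent replicate 2 fell within the non-senescent range. Fzd7, which like Fzd1 and Fzd2 belongs to a subfamily of close relatives, had 1236, 1734 and 825 against 2258, 2617 and 1338, a log2 fold change of 0.72 (standard error 0.35, adjusted p = 0.437). Same-numbered libraries differed by 0.87, 0.59 and 0.70 for Fzd7. In 4 of the 6 libraries Fzd2 was the Frizzled of highest level per kb, with Fzd7 first in non-senescent replicate 2 and Fzd1 first in senescent replicate 1.

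Fzd3, a receptor of planar polarity and axon growth, was the only one of the 8 tested Frizzleds whose groups did not overlap, at low values. It had 14.7, 4.71 and 15.9 normalized counts in non-senescent and 47.0, 24.3 and 31.3 in senescent MSFs. Its log2 fold change of 1.56 (standard error 0.57) had an adjusted p of 0.301, and every non-senescent value was under the minimum of 1 c.p.m. Fzd4, Fzd5, Fzd6 and Fzd8 had log2 fold changes of 0.20, 0.28, 0.05 and 0.27 with overlapping groups and adjusted p of 0.718 or more. Fzd9 was at 1.39 to 5.85 in the 6 libraries. Fzd10 was listed at 0 in the non-senescent libraries and at 0.77 to 0.82 in the senescent ones, again the level of about 1 read.

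The co-receptors Lrp5 and Lrp6 were abundant in both groups, and the log2 fold changes of Lrp5, Lrp6 and Ror2 were all negative, with overlapping groups, and none passed the adjusted threshold. Lrp5 had 3447, 3096 and 3382 normalized counts in non-senescent and 3151, 1858 and 3047 in senescent MSFs, a log2 fold change of −0.34 (standard error 0.24, adjusted p = 0.592). Senescent replicate 2 was the lowest, and without it the log2 fold change was −0.09. Lrp6 had 4039.96, 2603 and 5432 against 3442, 2067 and 5137, a log2 fold change of −0.21 (standard error 0.39, adjusted p = 0.860), which turned to 0.13 without senescent replicate 2, to 0.03 without non-senescent replicate 3 and to 0.02 with library weights. Ror2, a receptor for Wnt5a that acts without beta-catenin, had 637, 842 and 631 against 657, 473 and 569.6, with a log2 fold change of −0.31 (standard error 0.20, adjusted p = 0.572). Its relative Ror1 was low, at 2.90, 7.61 and 8.83 against 12.8, 6.69 and 24.5, and was not tested.

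**Figure D3:**
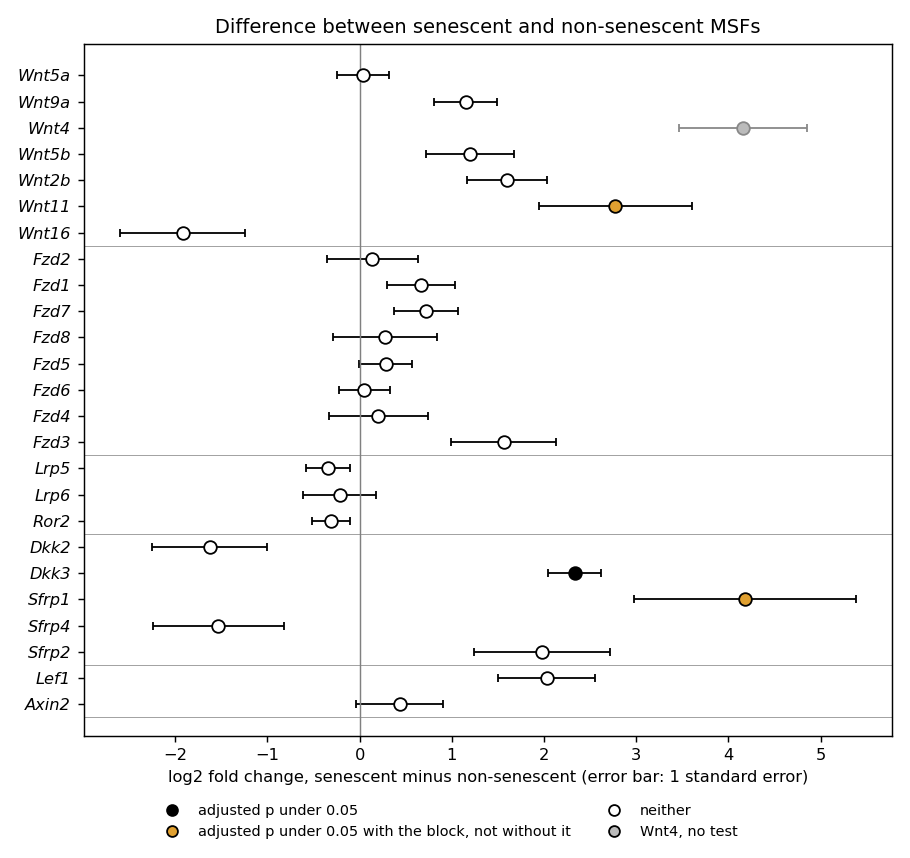
Log2 fold change (senescent minus non-senescent) of the 25 members that passed the filter, with 1 standard error from the fit without the replicate block, in the order of roles and levels. Dkk3 (black, 2.33) passed the adjusted threshold, Wnt11 and Sfrp1 (orange, 2.77 and 4.18) passed it with the replicate block but not without it, and Wnt4 (grey) was not tested because it chose the family.

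Among the secreted antagonists, Dkk3 rose in senescent MSFs. Dkk3 is a divergent member of its family that, unlike Dkk1, Dkk2 and Dkk4, is not known as a strong inhibitor of Lrp5 and Lrp6. It lies on chromosome 7 of mm9 from 119259533 to 119302571 on the minus strand. It had 1462, 1428 and 771 normalized counts in non-senescent replicates 1, 2 and 3 and 7103, 5427 and 5341 in senescent replicates 1, 2 and 3. Every senescent library was far above every non-senescent one, with means of 1221 ± 389 and 5957 ± 993 (SD, n = 3), a 4.88-fold ratio. Its log2 fold change of 2.33 (standard error 0.29) had an adjusted p of 0.0403, and same-numbered libraries differed by 2.28, 1.93 and 2.79. With only 1 library left out at a time the log2 fold change stayed between 2.03 and 2.49, but the adjusted p was between 0.0734 and 0.213. Without both libraries numbered 2 the log2 fold change was 2.53 (adjusted p = 0.0673).

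Dkk2, which binds Lrp5 and Lrp6 and can act as an agonist or an antagonist, had the opposite order. It had 7807, 6154 and 5689 normalized counts in non-senescent and 833, 5599 and 1983 in senescent MSFs. All senescent values were below all non-senescent values, but senescent replicate 2 lay just under the lowest of them. Its log2 fold change of −1.63 (standard error 0.62) had an adjusted p of 0.323, and same-numbered libraries differed by −3.23, −0.14 and −1.52. It was −2.33 (adjusted p = 0.151) without senescent replicate 2 and −0.96 (adjusted p = 0.551) without senescent replicate 1. Per kb of exon, Dkk2 was the first of the 9 antagonists in each non-senescent library, with 78.2% to 85.6% of their summed level, and Dkk3 the second, with 12.8% to 20.0%. In each senescent library Dkk3 was first, with 51.0% to 83.6%, and Dkk2 second, with 8.91% to 47.8%. The summed level per kb of the 9 antagonists overlapped between the groups, at 1800 to 2596 in non-senescent and 2188 to 3171 in senescent MSFs.

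**Figure D4:**
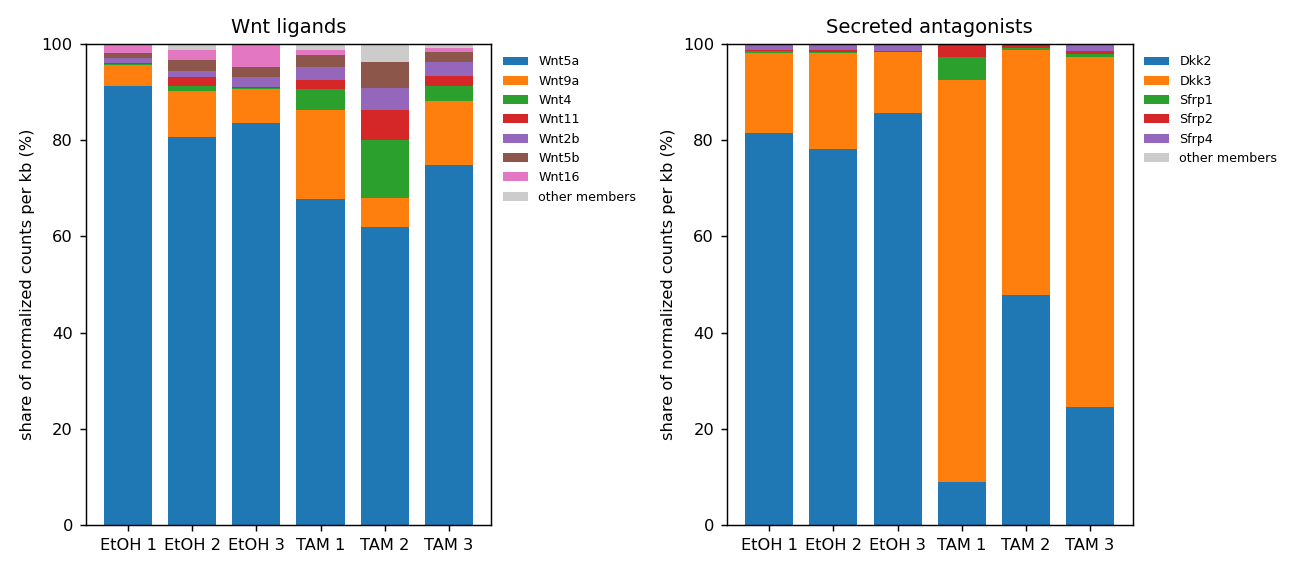
Shares (%) of each library's summed normalized counts per kb of exon held by the named ligands (left) and secreted antagonists (right), with the other members of each role in grey. Wnt5a holds the largest ligand share in all 6 libraries, and the first antagonist is Dkk2 in the 3 non-senescent and Dkk3 in the 3 senescent libraries.

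Sfrp1, a secreted protein that binds Wnt proteins with a Frizzled-like domain, lies on chromosome 8 of mm9 from 24521974 to 24560104. It had 31.0, 2.80 and 1.62 normalized counts in non-senescent and 532, 47.7 and 71.7 in senescent MSFs. The groups did not overlap, but replicate 1 was the highest of both groups, so the spread within groups was wide. Without the replicate block the log2 fold change of 4.18 had a standard error of 1.20 and an adjusted p of 0.223, and it ranged from 3.12 (without senescent replicate 1) to 5.29 (without non-senescent replicate 1) with 1 library left out. With the block the standard error was 0.37 and the adjusted p 0.0237, with differences of 4.06, 3.68 and 4.79 between same-numbered libraries. Non-senescent replicates 2 and 3 were under the minimum of 1 c.p.m., so the size of these changes depends on values near 0. Sfrp2, a relative made by dermal fibroblasts, had 16.1, 19.0 and 6.04 against 134, 46.9 and 21.9 normalized counts. Its groups were separated by the small gap between 19.0 and 21.9, with a log2 fold change of 1.98 (standard error 0.73, adjusted p = 0.311). A non-coding gene on the opposite strand, Gm16790, covers 16.1% of the exon bases of Sfrp2. Sfrp4 had 125.5, 107 and 103 against 19.7, 20.1 and 132, a log2 fold change of −1.53 (standard error 0.71, adjusted p = 0.411) in which senescent replicate 3 went against the other two. Sfrp5, Wif1, Dkk1 and Dkk4 were at or below 1.94 in every library and were not tested.

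The feedback genes Axin2 and Lef1, which beta-catenin activates in many tissues, were low. Lef1, a nuclear partner of beta-catenin, had 13.8, 38.1 and 11.35 normalized counts in non-senescent and 92.1, 51.9 and 97.9 in senescent MSFs. The groups did not overlap, and the libraries numbered 2 lay closest to each other. A log2 fold change of 2.03 (standard error 0.53, adjusted p = 0.193) was found, with differences of 2.65, 0.44 and 3.00 between same-numbered libraries. Axin2, a scaffold of the complex that degrades beta-catenin, had 13.3, 8.55 and 16.9 against 13.4, 19.3 and 19.7 normalized counts. These groups overlapped, with a log2 fold change of 0.44 (standard error 0.47, adjusted p = 0.740). A transcript on the opposite strand, Gm11670, covers 3.8% of the exon bases of Axin2.

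A wider set of 88 genes of the pathway was listed in 7 groups: release and binding of Wnt proteins, the R-spondin axis, other antagonists, cytoplasmic and nuclear regulators of beta-catenin, branches without beta-catenin, and genes often used as beta-catenin targets. Of these, 70 were tested, and limma called 0 higher and 0 lower at an adjusted p under 0.05, with and without the replicate block. Of all genes tested, 0.168% were higher and 0.0758% lower without the block, and 1.00% and 0.615% with it, so few calls were to be found among 70 genes. Of the 70, 8 higher and 3 lower genes had an unadjusted p under 0.05, against 6.66% and 6.70% of all genes tested. With library weights 3 were called higher (Lgr5, Ptk7 and 2610109H07Rik) and 3 lower (Myc, Twist1 and Apcdd1). In that fit 3.25% of all genes were higher and 3.00% lower. Log2 fold changes were positive for 31 and negative for 39, with a median of −0.05 against −0.03 for all genes tested. All 3 senescent values lay above the others for 6 of the 70 and below them for 5, against 9.19% and 11.4% of all genes tested.

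Among targets and regulators, Ccnd1, the gene for cyclin D1, had 686, 955 and 321 normalized counts in non-senescent and 1464, 5964 and 1476 in senescent MSFs, a log2 fold change of 1.98 (standard error 0.63, adjusted p = 0.256). Senescent replicate 2 was far above the rest, and the log2 fold change was 1.30 without it. The neighbouring gene Oraov1 overlaps 21.3% of the exon bases of Ccnd1 on the opposite strand. Nkd2, an inhibitor that binds Dishevelled and is used as a target gene as well, had 81.8, 40.0 and 0.74 against 452, 788 and 118 (log2 fold change 4.27, standard error 1.43, adjusted p = 0.273). Non-senescent replicate 3 was near 0, and the log2 fold change ranged from 2.58 to 5.37 without 1 library at a time. Apc, a scaffold of the degradation complex, had 2159, 1562 and 1957 against 2785, 2548 and 2163 (log2 fold change 0.41, adjusted p = 0.427). Twist1, from the list of target genes, went the other way. It had 1798, 1475 and 2023 normalized counts in non-senescent and 854, 852 and 1036 in senescent MSFs. The groups of Twist1 did not overlap (log2 fold change −0.94, standard error 0.19, adjusted p = 0.119).

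On the cell surface, Lgr4, a receptor for R-spondins, had 469, 432 and 647.5 normalized counts in non-senescent and 1245, 685 and 838 in senescent MSFs (log2 fold change 0.81, adjusted p = 0.272). Ptk7, a co-receptor of the planar polarity branch, had 3909.9, 3784 and 2913 against 6888, 6925 and 5339.99, with every senescent library well above every non-senescent one (log2 fold change 0.85, standard error 0.20, adjusted p = 0.172). Prickle1, a cytoplasmic protein of the same branch, had 589.7, 769 and 399 against 1009, 1062 and 837 (log2 fold change 0.77, adjusted p = 0.281). In the nucleus, Bcl9, which links beta-catenin to its co-activators, was at 784 to 973 in non-senescent and 584 to 738 in senescent MSFs (log2 fold change −0.46, adjusted p = 0.325). Cxxc5, which binds Dishevelled, was at 351 to 867 and 254 to 317 (log2 fold change −0.80, adjusted p = 0.385).

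**Figure D5:**
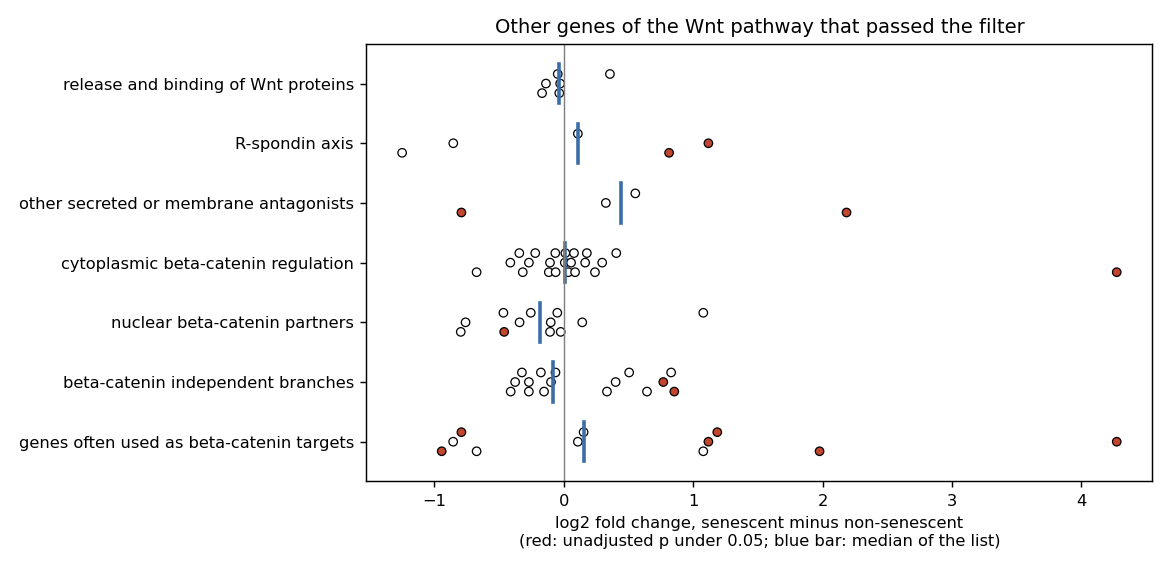
Log2 fold changes (senescent minus non-senescent) of the 70 other pathway genes tested, by list, with each point a gene and a gene drawn again where lists share it. Blue bars are list medians, and red points, those with an unadjusted p under 0.05, lie on both sides of 0.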

How the data were processed

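TopHat was used by the authors to map poly(A) reads to mm9, htseq-count to count reads per RefSeq gene, and edgeR, with TMM, for differential expression. They deposited this signal as a single table, which holds normalized counts for each gene in each library (the authors' own values). How it was scaled is not stated. Since the values are mostly not whole, no count model was run here and no counting interval is given. The number of reads is not known for all libraries, and the 3 libraries of each group set the precision.

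Libraries were grouped by their labels. Differences in log2(value + 1) were fitted in R 4.3.3 with limma 3.58.1 and an intensity trend, over genes at 1 c.p.m. (16.2 normalized counts, from the mean library sum) in at least 3 of 6 libraries, with Benjamini-Hochberg adjustment over all 11877 genes. The model was tested on simulated data. Where libraries were independent, the fit without the block called 83% of 2-fold and 100% of 8-fold changes, with 5.18% of its calls false. The fit with the block called 79% and 100% there, with 5.79% false. Where same-numbered libraries shared effects, the fit without the block called 0% of 2-fold and 86% of 8-fold changes. The fit with the block called 42% and 97%, and 1.15% and 6.71% of the calls of the 2 fits were false. The noise of single libraries was set below the spread within groups seen here, so these shares do not carry over to these data. The replicate numbers come from the labels. Across genes, deviations from group means correlated with r of 0.24, 0.29 and 0.42 between same-numbered libraries and −0.31 to 0.04 between others. The deviations of a gene sum to 0 within a group, so positive values for same-numbered libraries push the others down. The 2 ranges are therefore not separate evidence. The main fit did not pair libraries, and a further fit took the replicate number as a block. This pairing was read from the same expression values, and the labels do not state it. Exon lengths, overlaps and promoters come from the mm9 annotation and genome, where all 44 members were found, 36 with the same start and end. Transcripts were matched with BLAST 2.17.0. Python 3.11.15, pandas 2.3.3 and matplotlib 3.10.9 were used.

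The members, the pathway and marker lists and the tests were chosen with earlier results of these data known. Members were named if they chose the family, if their groups did not overlap, if they were called in either fit, if they were Axin2 or Lef1, or if they were among the 3 of highest level per kb in their role. Of the wider lists, up to 2 genes per list with the largest change and no overlap were named. The wider genes called with library weights were named as well. Other members are given by value or range. Alternatives were 2 scalings, pseudocounts of 0.1 and 10, 2 filters, the block, library weights and leaving out each library. Leaving out both libraries numbered 2 was added after seeing the data.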

Additional observations from a re-analysis of the deposited data

How the results depend on the processing

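Of the 28 genes whose log2 fold changes were recomputed under up to 15 alternatives, 25 kept their direction in all of those that could be run. Many of the 28 were named because their groups did not overlap, and for those only a change of scaling could turn the sign. Their kept direction is therefore no sign of stability. The exceptions were 3 genes with overlapping groups and small changes. Wnt5a ranged from −0.17 to 0.27 when libraries were left out, Lrp6 from −0.53 to 0.13 and Fzd2 from −0.45 to 0.45. With library weights, Lrp6 was at 0.0169 and Fzd2 at −0.0407. With the replicate block, 3 members were higher instead of 1, and the block changed no other call among the members or the wider lists. Library weights gave least weight to both libraries numbered 2 (0.29 each) and most to senescent replicate 3 (4.06), and called 5 members higher (Dkk3, Wnt9a, Wnt11, Wnt2b and Lef1) and 1 lower (Dkk2), with 3 wider pathway genes higher and 3 lower, where 3.25% of all genes were higher and 3.00% lower. Over all genes, the block raised the number called from 29 to 192 and library weights raised it to 742. The number of members called higher was 0 (from 0 to 0) with any library left out or with both libraries numbered 2 left out, where fewer libraries enter the fit. These fits called few genes of any kind. Over all genes, 0 to 15 were called with 1 library left out and 9 without both libraries numbered 2. In the main fit the median log2 fold change of the members tested was 0.44 with Wnt4 and, as reported above, 0.36 without it. The alternatives were computed only for the median with Wnt4, which was 0.26 to 0.58 with 1 library left out. Without both libraries numbered 2 the median was 0.17, but over fewer members, as Wnt4 and others failed the filter there. Dkk3 passed in each scaling, pseudocount and filter tried (adjusted p = 0.0252 to 0.0499). Scaling to equal sums moved the median of all genes from −0.03 to 0.08. The minimum of 3 libraries at 1 c.p.m. was kept without both libraries numbered 2. Genes under it in both remaining non-senescent libraries therefore failed at any senescent level. Wnt4, Wnt11, Fzd3, Sfrp2 and Lef1 failed in this way, and Axin2 failed as well.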
